A study of Drosophila melanogaster with 35 samples.

Results

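The comparison set gene expression in brains of DMAD-knockout flies against that in control brains, one of the RNA experiments in a Drosophila melanogaster series on DMAD and DNA adenine methylation. DMAD is the protein of CG43444, formerly CG2083. Control brains carry the genotype "Wildtype" in the labels and the others "DMAD-knockout". Each group had 2 RNA-seq libraries, which the authors pooled to 1 value per gene and group. The labels name the source as brains and give no allele, sex, age or number of brains, nor whether libraries of a group were made from separate flies. The spread behind the authors' test may therefore be technical. Libraries were made with an unstranded TruSeq RNA v2 kit and read in 50 paired-end cycles. Values are FPKM, fragment numbers scaled to transcript length and library total. The members are all genes to which the authors' table gave status OK, meaning that enough fragments were present for its test: 8266 of the 15061 listed. The 2 RNA tables of the series, this one and that of the cell line BG3C2, together name 15234 distinct symbols.

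DMAD belongs to the Tet family, whose mammalian members oxidise 5-methylcytosine, and in flies the protein has been linked to the removal of N6-methyladenine (6mA) from DNA. The immune genes that appear below belong to the humoral response of flies. Bacterial peptidoglycan or fungal products are sensed by recognition proteins, the Imd and Toll pathways carry the signal to the NF-kappaB factors Relish, Dorsal and Dif, and these switch on genes for secreted antimicrobial peptides. In the adult the fat body, which also lies in the head, is the main source of these peptides, and glia and epithelia make them too. Heat shock proteins are chaperones that hold or refold damaged proteins, and their inducible genes are switched on by heat shock factor, Hsf.

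Because each gene has 1 value per group, replicate error cannot be given for any value, and library depth is unknown. A gene is called where the authors' deposited table gives status OK, a q-value below 0.05 and its own flag. That table called 63 genes (0.762% of those tested), 32 higher in knockout (0.387%) and 31 lower (0.375%), and 40 of them share its lowest p-value, 5e-05, with a q of 0.0103. At an unadjusted p below 0.05 it held 290 genes (3.51%), 159 higher (1.92%) and 131 lower (1.58%). At the called share, 0.762%, each gene list used here would hold fewer than 1 called gene, so a list without a call says little. A log2 ratio below is log2 of the knockout FPKM over the control FPKM.

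CG43444 itself, the target (dm3, 3L, 2786205 to 2879158), had an FPKM of 39.8 in control and 40.4 in knockout brains, a log2 ratio of 0.02 (q = 1.00 in the authors' deposited table). A value for the whole gene does not test a deletion or insertion that leaves most of the transcript in place, so it leaves the label unchecked. Directions below are those of the libraries labelled knockout. Of 14 tested genes on the list of adenine methylation in DNA and RNA, the target included, none was called, and their log2 ratios ran from -0.49 (CG4036, the fly ALKBH4 homologue) to 0.91 (CG14906, a METTL4 homologue, 5.16 to 9.70 FPKM). YT521-B, a nuclear reader of N6-methyladenosine in RNA, had 105 FPKM in control and 95.7 in knockout.

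Most of the brain transcriptome lay close to equality. Of 8227 genes with a value above 0 in both groups, 7113 (86.5%) lay within 0.5 of equality on the log2 scale, and the median ratio was -0.01. Ratios of at least 1 in size were reached by 220 genes upward and 134 downward, of which 303 were not called. The test needs fragments in at least 1 group, so a gene that is low in one group had to be high in the other to be tested: of 168 tested genes with a control FPKM under 3, the lowest knockout value was 3.63. Ratios of low genes carry this selection, and in the plot of FPKM in both groups the lower left corner below this limit is empty.

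**Figure D1:**
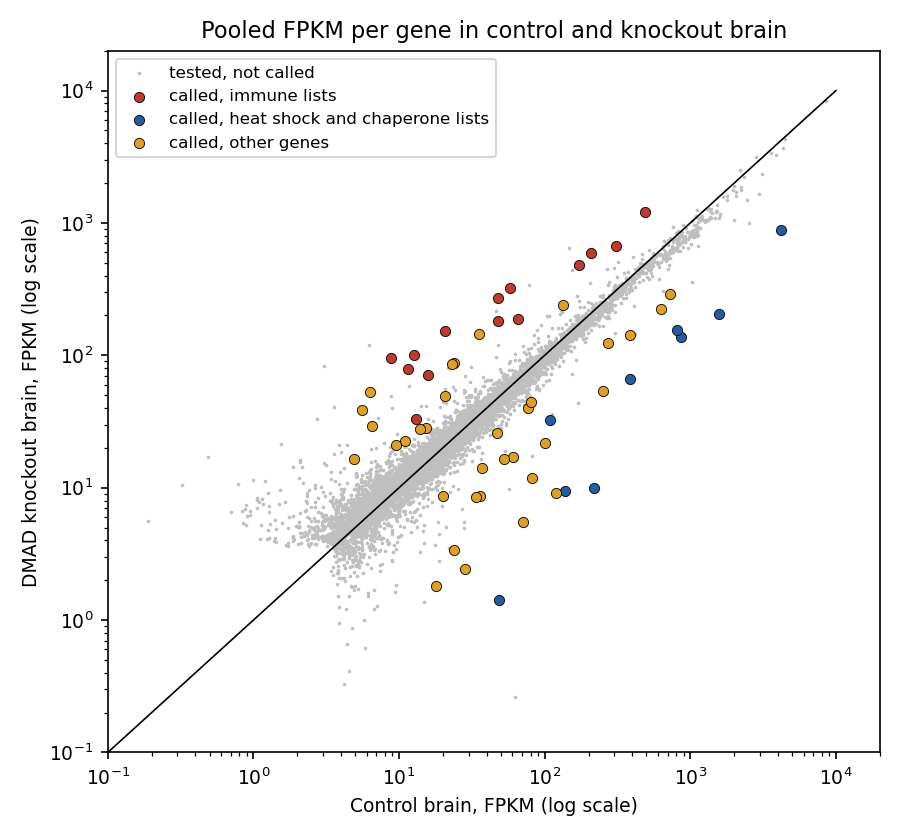
FPKM in control brains (horizontal) against DMAD-knockout brains (vertical), both on log axes, for tested genes with a value above 0 in both groups; coloured points are genes called in the authors' deposited table. The 63 calls include 29 with a log2 ratio of at least 2 in size, among 111 such genes, and genes at 0 in one group cannot be drawn.

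Antimicrobial peptide genes rose, and the rises spread over peptides of both pathways. Of 36 such genes listed, 28 were tested, and 11 rose in the authors' deposited table while none fell. All 28 ratios were above 0, with a median of 1.53, beside a median of -0.01 over all tested genes. Members low in control, such as CecB (1.16 and 7.51 FPKM) and CecA2 (3.05 and 83.1), carry the selection described above, so their direction adds little to this count. The median level of the list was 102 FPKM. The summed FPKM of the list was 3241 in control and 7690 in knockout. Among peptides acting mainly on Gram-negative bacteria, which Imd signalling controls, attacins and diptericins had the largest called ratios. AttB had 8.81 FPKM in control and 94.98 in knockout, Dpt 20.7 and 153, DptB 47.4 and 271, and Dro, which encodes drosocin, 57.6 and 320. These are rises of 10.8, 7.38, 5.72 and 5.56 times. AttA and AttB are near-identical copies, as are CecA1 and CecA2, so the split of reads within each pair is uncertain.

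Peptide genes that Toll signalling controls were also among the called rises. Drs, the antifungal peptide drosomycin, stood at 209 FPKM in control and at 597 in knockout. The bomanins, short secreted peptides needed for resistance to Gram-positive bacteria and fungi, were among the most abundant immune transcripts. IM3 (now BomS3) had 490 and 1211 FPKM, IM2 (BomS2) 309 and 668, IM1 (BomS1) 171 and 480, and IM23 (BomBc1) 65.2 and 189, so that they rose by 2.17 to 2.90 times. Members of the bomanin family and of other immune-induced peptides also made up the lower end of the list. CG15068 had 454 FPKM in control and 499 in knockout (log2 ratio 0.14), and CG5791 had 74.7 and 83.1 (0.15).

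The 2 largest ratios of the list, those of cecropin genes, were not called, nor was that of Mtk. CecA1 stood at 6.22 and 119 FPKM (log2 ratio 4.26, p = 0.0228), CecA2 at 3.05 and 83.1 (4.77, p = 0.107), and Mtk, the antifungal peptide metchnikowin, at 147 and 645 (2.14, p = 0.331), p-values being those of the authors' deposited table. The control FPKM of Mtk was above that of 7 of the 11 called members. A further 6 peptide genes passed an unadjusted p below 0.05 without a call, CecA1 among them. Listericin, a peptide first described against Listeria, had 11.6 and 58.3 FPKM (log2 ratio 2.33, q = 0.254 in the authors' deposited table). CG43236 (now Mtkl, metchnikowin-like), which is on no list, was listed at 0 in control and at 48.3 in knockout and was called higher.

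**Figure D2:**
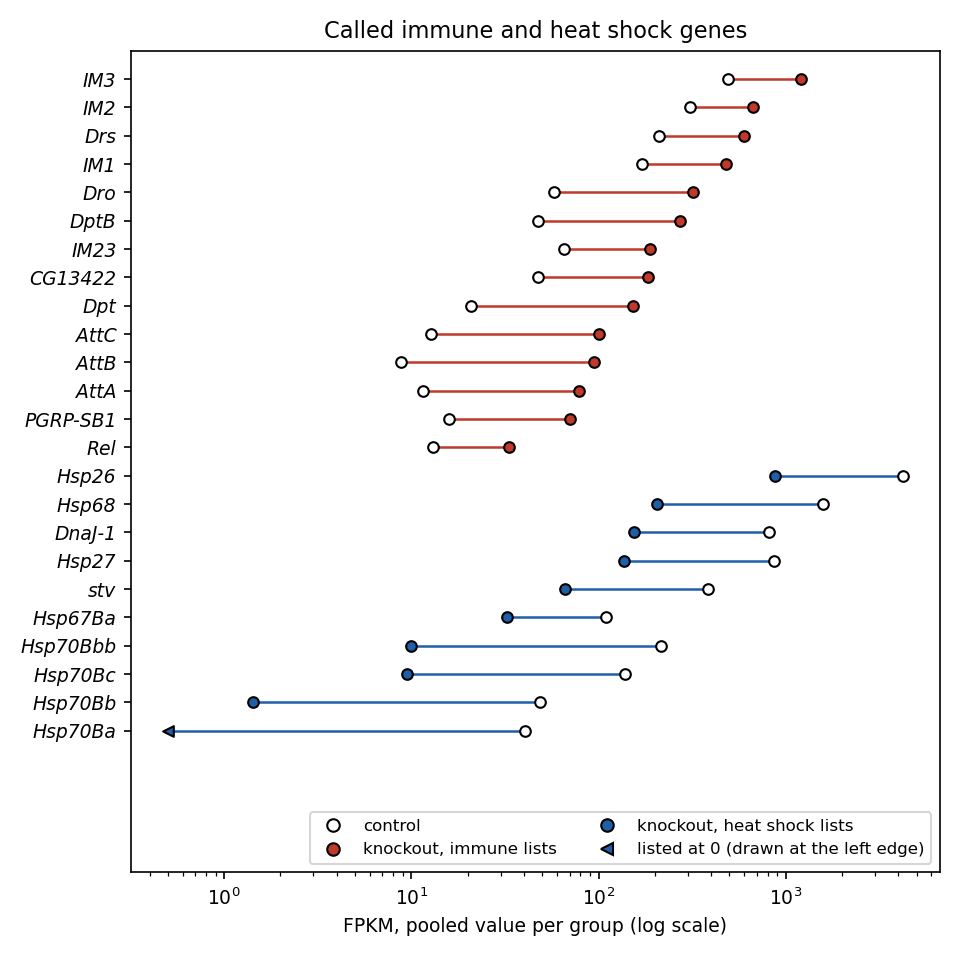
Pooled FPKM in control (open points) and DMAD-knockout brains (filled points) on a log axis for called genes of the immune lists (red) and of the heat shock and chaperone lists (blue), 1 value per gene and group. IM3 reaches the highest knockout value of the immune genes, 1211, Hsp26 goes from 4227 to 880, and Hsp70Ba is listed at 0 in knockout.

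Signalling genes upstream of the peptides mostly lay near equality. Of 31 tested genes of the Imd pathway 2 rose in the authors' deposited table: Rel, which encodes Relish, from 13.1 to 33.2 FPKM, and PGRP-SB1, a secreted peptidoglycan amidase, from 15.8 to 70.8. The median of the list was 0.09, with 19 genes above 0. The receptor PGRP-LC had 12.2 FPKM in control and 16.0 in knockout, the adaptor imd 9.89 and 10.9, the kinase Tak1 22.8 and 20.3, and the caspase Dredd 4.36 and 5.67. Negative regulators gave no call. The largest differences among them were higher values in knockout, all in genes low in control. They were those of pirk, which sequesters receptors (2.25 and 4.65 FPKM), and of the amidase genes PGRP-LB (3.69 and 6.46) and PGRP-SC2 (1.87 and 14.3, p = 0.0535 in the authors' deposited table). Others lay near equality. The deubiquitinase gene CYLD had 35.34 and 35.03 FPKM, casp, the gene of Caspar, 25.90 and 25.96, and POSH 7.08 and 6.49. Values were 23.5 and 26.8 for dnr1, 29.2 and 31.1 for trbd, 21.4 and 21.7 for scny, and 51.7 and 50.9 for faf.

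In the Toll pathway 1 of 22 tested genes rose in the authors' deposited table, with a list median of 0.22. It was CG13422 (now GNBP-like3), a small protein related to the glucan-recognition proteins, from 47.5 to 183 FPKM. The recognition protein PGRP-SA had 3.38 and 9.19 FPKM, the serpin gene nec 40.3 and 65.4, and the inhibitor cact 51.7 and 67.7, all without a call. Of 14 tested genes of the JAK/STAT pathway and the Turandot family none was called, and the median was 0.05. Tep2 and Tep4, which encode thioester-containing proteins, had log2 ratios of 0.79 and 0.88 with p = 0.0046 and p = 0.00455 in the authors' deposited table, short of its q threshold. The stress-induced TotA stood at 45.6 and 48.5 FPKM, and vir-1 at 341 and 351.

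Hsp70 and Hsp68 genes fell, with some small heat shock proteins and co-chaperones. Over 3 lists of heat shock proteins and chaperones, 36 genes were tested, 10 fell in the authors' deposited table and none rose, and 28 of the 36 had a lower value in knockout. All 5 tested Hsp70 and Hsp68 genes fell. Hsp68 went from 1578 to 204 FPKM, 7.72 times lower, and the Hsp70Bbb copy from 216 to 9.96, 21.7 times lower. The Hsp70B genes are near-identical copies, so how reads were divided among them is uncertain. Besides Hsp70Bbb, Hsp70Bb had 48.7 FPKM in control and 1.43 in knockout, Hsp70Bc 139 and 9.51, and Hsp70Ba 40.6 and 0. The sum over the 5 genes was 2022 FPKM in control and 225 in knockout. Most of that sum came from Hsp68, which is not one of these copies.

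Small heat shock proteins, which bind unfolding proteins without ATP, were the most abundant of the 3 lists in control, with a sum of 10530 FPKM, and stood at 4086 in knockout. Hsp26 fell from 4227 to 880 FPKM, Hsp27 from 866 to 137 and Hsp67Ba from 110 to 32.6, and these 3 neighbours on arm 3L were the called members among 10 tested. Hsp22, a mitochondrial member, had 1988 and 1056 FPKM and Hsp23 2983 and 1643, with p = 0.0043 and p = 0.0149 in the authors' deposited table and no call. Other members had higher values in knockout: l(2)efl, the gene of an alpha-crystallin-like protein, stood at 20.8 and 46.4 FPKM (p = 0.0992 in the authors' deposited table). The list thus held ratios from -2.66 to 1.15, around a median of -0.70.

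Of the co-chaperones that work with Hsp70, 2 fell. DnaJ-1, an Hsp40, went from 809 to 154 FPKM, and stv, which encodes the BAG-domain protein Starvin, from 384 to 66.1. Both were called in the authors' deposited table, the only calls among the 21 other chaperones and stress factors tested. Of these, 17 had a ratio below 0, with a median of -0.35. At an unadjusted p below 0.05 in the authors' deposited table, 8 of the 21 were lower and none higher. Over all tested genes 1.58% were lower at that p. Hsp83, the fly Hsp90, had 2530 and 993 FPKM (log2 ratio -1.35, p = 0.0335, q = 1.00 in the authors' deposited table). The heat-inducible nuclear RNA gene Hsromega had 304 and 147 (-1.05, q = 0.128 in the authors' deposited table).

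Constitutive members moved less in value. Hsc70-4, the main cytosolic cognate of Hsp70, had 1104 FPKM in control and 792 in knockout, the endoplasmic reticulum member Hsc70-3 had 275 and 190, and the mitochondrial chaperonin Hsp60 had 381 and 300, none of them called. For Hsc70-3 the unadjusted p was 0.0377 in the authors' deposited table. Hsf stood at 37.7 and 30.9 FPKM (log2 ratio -0.29). A heat-inducible non-coding transcript from the Hsp70 region, alphagamma-element:CR32865, fell from 28.2 to 2.45 FPKM, 11.5 times. For detoxification genes, often read as stress markers, the median was -0.03 over 26 glutathione S-transferase genes and -0.10 over 35 cytochrome P450 genes.

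**Figure D3:**
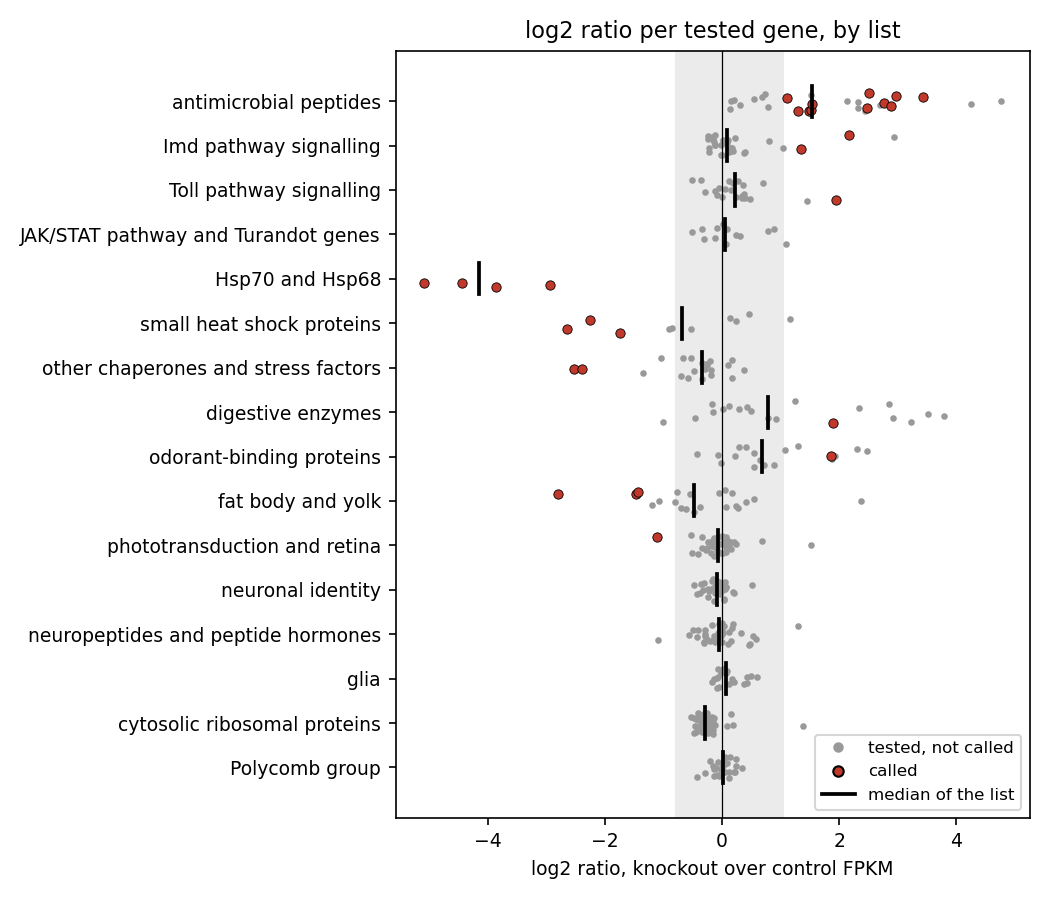
Log2 ratio of knockout over control FPKM for each tested gene with a value above 0 in both groups, by gene list; coloured points are called genes and the grey band spans the central 95% of all tested genes, from -0.78 to 1.04. Antimicrobial peptide genes lie to the right of 0, Hsp70 and Hsp68 far to the left, and neuronal, glial and Polycomb lists within the band.

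Markers of brain cells lay near equality. Of 38 tested neuronal identity genes none was called, and their log2 ratios ran from -0.48 to 0.50 around a median of -0.08. The synaptic vesicle protein gene n-syb had 1027 FPKM in both groups, cpx, a regulator of vesicle fusion, 1313 and 1288, and Gad1, the enzyme that makes GABA, 676 and 700. The pan-neuronal elav stood at 75.9 and 58.6 FPKM and Cha, which makes acetylcholine, at 89.4 and 127. Glial genes had a median of 0.07 over 21 tested and no call, with the glutamine synthetase gene Gs2 at 2356 and 2217 FPKM. In bulk tissue, fewer cells of a type and less RNA per cell cannot be told apart.

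Retina genes show that photoreceptors were part of the sample. The main rhodopsin gene ninaE had 3597 FPKM in control and 3376 in knockout, and the median over 41 tested genes was -0.07. The light-activated channel gene trpl fell from 270 to 124 FPKM, the only call of the list, while trp, its partner channel, had 390 and 322. Rh2, the rhodopsin of the ocelli, had 132 and 212 FPKM (p = 0.0036, q = 0.317 in the authors' deposited table).

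Neuropeptide genes gave no call among 40 tested, with a median of -0.06. Akh, the adipokinetic hormone of the corpora cardiaca, had 28.3 FPKM in control and 69.5 in knockout (log2 ratio 1.29, p = 0.0052, q = 0.398 in the authors' deposited table). Ilp5, an insulin-like peptide of the median neurosecretory cells, had 155 and 72.0, but p was 0.0687 in the authors' deposited table, and the Ilp2 of the same cells had 244 and 222. The clock-output peptide gene Pdf stood at 194 and 183 FPKM.

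Of 18 tested activity-induced genes 1 rose and 1 fell. Hr38, a nuclear receptor gene induced by neuronal firing, rose from 9.52 to 21.1 FPKM, and CG30497 fell from 47.4 to 25.95, both calls of the authors' deposited table. Other members of the list were near equality: sr, the fly Egr gene, had 6.28 and 7.20 FPKM and kay, the fly Fos gene, 32.6 and 29.95. Clock genes had a median of -0.07 and learning and memory genes of -0.09, with no call in either list.

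Transcripts typical of tissues around the brain differed between the groups, in both directions. Among fat body and yolk genes 3 of 21 tested fell in the authors' deposited table: fit, a feeding- and sex-dependent secreted peptide of the head fat body, from 82.0 to 11.8 FPKM, and the yolk protein genes Yp1 (624 to 225) and Yp2 (383 to 142). Other members of the list had higher values in knockout at an unadjusted p below 0.05 in the authors' deposited table: Fbp2 had 1.27 and 6.59 FPKM and Npc2b 76.5 and 111. Yp3, the third yolk protein gene, had 649 and 306 FPKM (q = 0.252 in the authors' deposited table). Yolk proteins and fit are female-biased, and the labels give no sex. The dosage compensation RNA roX2, which is male-specific, had 164 FPKM in control and 92.0 in knockout (p = 0.0096, q = 0.592 in the authors' deposited table). Its partner roX1 had 420 and 330 (p = 0.225 in the authors' deposited table), and neither was called. Sxl, the sex-determination switch, had 125 and 126 as whole-gene values, which do not separate spliced forms. Whether the groups differed in sex was not tested.

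Digestive enzyme genes had low values, most of them higher in knockout. Of 51 listed, 21 were tested, and 2 rose in the authors' deposited table: the amylase gene Amy-p, from 23.1 to 85.4 FPKM, and the serine protease gene Jon25Biii, listed at 0 in control and at 7.55 in knockout. Amy-d, a near-identical amylase copy, had 14.7 and 27.7, and reads of these copies cannot be separated with certainty. Since genes at 0 or near it in control were tested through their knockout value, the list's median of 0.78 is a description of the tested members. Of 19 tested odorant-binding protein genes Obp56d rose from 24.0 to 86.9 FPKM and Obp56g was listed at 0 and 22.9, both called in the authors' deposited table. The most abundant of them, Obp44a, which glia express, had 8550 FPKM in control and 8401 in knockout. Odorant and taste receptor genes had a median of -0.31 over 13 tested, and the olfactory co-receptor Orco had 5.00 and 5.49 FPKM.

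Summed over short marker lists, the tissue signals that moved stand beside the immune and heat shock changes as follows. The 5 fat body markers summed to 1025 FPKM in control and 380 in knockout, almost all of it from Yp1 and Yp2. Of the other 3, Cyp4g1 (1.08 and 1.93) and Fbp1 (1.47 and 2.84) were higher in knockout and Lsp2 (14.8 and 9.12) was lower, so that 2 of the 5 were higher and 3 lower. The 6 gut markers summed to 56.7 and 150, with Jon25Biii at 0 in control, and 5 of the 6 were higher in knockout. Neuronal markers summed to 2694 and 2706, glial markers to 3087 and 2938, retinal markers to 5093 and 4719, muscle markers to 230 and 261, haemocyte markers to 71.7 and 68.4, and antennal markers to 25.7 and 39.6. Muscle markers went both ways without a call. Act57B (84.5 and 142.6) and Mhc (35.5 and 44.4) were higher in knockout, and Act88F (72.2 and 41.9) and fln (38.1 and 31.6) lower. Pxn, the only haemocyte marker tested, gave 66.0 and 63.1 FPKM of that sum. Markers of ovary and testis were at or near 0 in both groups, summing to 3.09 and 1.41. What part other tissues had in the immune or heat shock differences was not tested.

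Outside the lists, 13 genes rose and 15 fell. Among the rises were CG7567 (6.31 to 52.6 FPKM), CG42807 (5.57 to 38.9), CG16772 (35.1 to 144) and the serpin gene Spn28Dc (6.57 to 29.2). The mucin gene Muc68D went from 20.7 to 49.2, and Lrrk, the fly homologue of the Parkinson's disease kinase LRRK2, from 11.03 to 22.7. CG15282 and CG42728 were listed at 0 in control and at 8.81 and 10.5 in knockout.

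The falls outside the lists held genes of several kinds. The neighbours CG6912 and CG3984 went from 119 to 9.14 and from 71.2 to 5.54 FPKM, 12.98 and 12.8 times lower. The tumour suppressor gene p53 fell from 33.9 to 8.46, Teh1, an auxiliary subunit of the voltage-gated sodium channel, from 100.3 to 21.6, and Est-6, a carboxylesterase, from 252 to 53.7. Prat2, an enzyme of purine synthesis, went from 52.6 to 16.6, and the kinase gene fray from 76.6 to 39.7. The nervous-system non-coding RNA noe was the most abundant of these, at 730 and 292 FPKM. Of the Osiris family, a list of its own, the only tested gene was Osi2, which fell from 18.1 to 1.797.

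Several called genes share ground with other genes. For 12 of the 63, another gene of the table is listed at the identical locus, among them Hsp68, Rel, p53, fit, trpl, noe and Hr38. A shared locus does not show that the transcripts themselves overlap. Where transcripts do overlap, an unstranded kit does not tell by strand which gene a read came from. Among genes not called, 115 had a log2 ratio of at least 2 in size or a 0 in one group, 79 higher and 36 lower in knockout. Of the 79, 71 had a control FPKM under 5, and of 33 with a group at 0, 24 carry symbols of snoRNA, snRNA or miRNA genes. Among them CG16713 had 46.7 and 217 FPKM (q = 0.0851 in the authors' deposited table), CG10725 had 3.56 and 41.1 (q = 0.0751), and the bomanin gene CG43202 (now BomT1) had 2.74 and 33.2 (q = 1.00).

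Some called genes were neighbours. With at most 20000 bp between neighbours, 23 of the 63 called genes formed 9 chains, 9 genes higher and 14 lower, with no chain of mixed direction. The chains of rises were Dro, AttA and AttB within 4209 bp on arm 2R (10633461 to 10637670, dm3), the 4 bomanin genes IM23, IM1, IM2 and IM3 within 5787 bp on the same arm (14270208 to 14275995), and Dpt beside DptB. The chains of falls were Hsp26, Hsp67Ba and Hsp27 on 3L (9369517 to 9378382), the Hsp70B copies on 3R in 2 chains, 1 of them with alphagamma-element:CR32865, CG6912 with CG3984, CG17121 with p53, and Yp2 with Yp1 on X. Tandem copies make up most of these chains, and genes of one chain are not independent counts.

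On arm 3R 19 genes fell and 4 rose in the authors' deposited table, and its median over 2029 tested genes was -0.00, so the arm as a whole was not lower. Of the 19, 9 lay in chains and 10 did not, 5 are heat shock genes, and from the first to the last they spanned 21697728 bp (dm3). These were 0.936% and 0.197% of the genes tested on 3R, against 0.375% falls and 0.387% rises over all tested genes. On 2R, 16 of 1686 tested genes rose (0.949%) and 2 fell (0.119%), and all 9 rises that lay in chains were on this arm. On 2L, 5 of 1452 rose (0.344%) and none fell. Of 1588 tested on 3L, 6 rose and 8 fell, and of 1374 on X, 1 rose and 2 fell.

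A small difference shared by many genes appeared on chromosome 4, the short and largely heterochromatic chromosome bound by the protein Pof. Of its 82 tested genes 69 (84.1%) had a lower value in knockout, with a median log2 ratio of -0.13 and quartiles of -0.23 and -0.03. None was called, and none had an unadjusted p below 0.05 in the authors' deposited table. Some of the 82 are listed at an identical locus, such as unc-13 with CR43425 and CR44029, or PMCA with CG32850. The 82 may therefore not be independent counts. Expression level moved with the ratio over all genes, the median going from 0.19 for mean FPKM under 5, a class that carries the selection described above, to -0.11 over 100. Chromosome 4 genes had a median level of 58.2 FPKM, against 22.0 for all. Among genes with a mean FPKM of at least 10, the median was -0.13 on chromosome 4 (75 genes, 63 below 0) and -0.03 elsewhere (6216 genes). This split does not match the level: over all genes the median was 0.004 from 10 to 50 FPKM and -0.07 from 50 to 100. Chromosome 4 loci were also longer, with a median of 10444.5 bp against 4583 bp for all. Among loci over 10000 bp the medians were -0.13 on chromosome 4 and -0.04 elsewhere. On X the median was -0.02, with 739 of 1374 genes (53.8%) below 0, and over the 55 tested genes of heterochromatic and unplaced sequence it was -0.09, with 37 (67.3%) below 0.

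**Figure D4:**
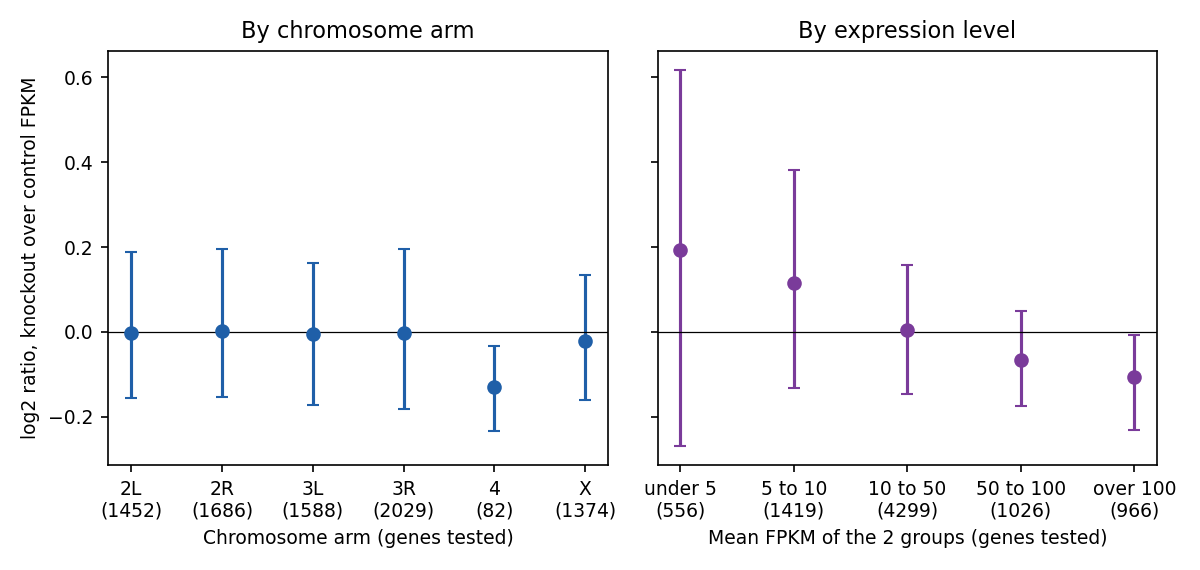
Log2 ratio of knockout over control FPKM by chromosome arm and by class of mean FPKM; points are medians and bars span the quartiles. The chromosome 4 bar lies below 0, from -0.23 to -0.03, while the main arms centre on 0, and the median moves from 0.19 in the lowest expression class to -0.11 in the highest.

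Abundant housekeeping genes had slightly lower values in knockout. Cytosolic ribosomal protein genes had a median of -0.30, and 82 of 86 tested lay below 0, with none called and 2 at an unadjusted p below 0.05 in the authors' deposited table (RpL18, 1009 and 696 FPKM, p = 0.025, and RpS9, 1122 and 808, p = 0.0464). Oxidative phosphorylation genes had a median of -0.17, with 27 of 28 below 0, and proteasome genes of -0.15. Their median levels were 840, 435 and 51.8 FPKM. Over all 966 genes with a mean FPKM above 100, 731 were lower in knockout. FPKM are relative to each library's total, so a lower share does not show fewer molecules per cell.

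No gene was called among chromatin regulators and their classical targets. Polycomb group genes had a median of 0.02 and ratios from -0.43 to 0.33 over 27 tested. Trithorax group and H3K4 methyltransferase genes stood at -0.03 over 32, Hox genes and other Polycomb targets at -0.03 over 18, and axon guidance and adhesion genes at -0.09 over 52.

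The series also lists 5340 regions of the brain where the authors saw a gain of 6mA in knockout. Called genes did not hold such regions more often than tested genes as a whole. A region overlapped the locus of 3 of 32 called rises (9.38%, 95% Wilson interval 3.24 to 24.2), 3 of 31 called falls (9.68%, 3.35 to 24.9) and 1881 of all 8266 tested genes (22.8%, 21.9 to 23.7). These intervals cover counting error only, and the called loci are short: their medians were 825 bp for rises and 2878 bp for falls, against 4583 bp for all, and the share of loci with a region went from 3.39% in the shortest of 5 equal classes of locus length to 71.1% in the longest. In that longest class 4 of 8 called genes held one. The called genes with a region were Hr38, CG6040 and CG32206 among the rises and trpl, CG17121 and CG30497 among the falls, and the CG43444 locus held 3 regions. The loci of Hr38, CG32206 and trpl are shared with other genes of the table, so their regions may lie outside the named gene. None of the called immune or heat shock genes held one, but most of their loci fall in the shortest length classes, where 3.39% and 5.32% of all loci did. Their lack of a region therefore says little.

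The same genes were then read in BG3C2, a neuronal cell line knocked down for DMAD with dsRNA, whose table was made separately, so that only ratios are set side by side. Of the 32 rises in brain 17 were tested there, 13 were above 0 and 8 were called higher in the authors' deposited table, with a median log2 ratio of 1.35. That table called 19 genes higher (0.220%) and 3 lower (0.0347%) of 8645 tested in BG3C2. The 8 brain rises called there were the peptide genes Drs, Dro, Dpt, DptB, AttA, AttB and AttC, and CG42807, which is on no list. The 4 below 0 were CG11426, CG6040, Lrrk and CG1673, all on no list. The bomanin genes IM1, IM2, IM3 and IM23 were not tested in BG3C2. Rel had 116 FPKM in control and 181 in knockdown cells (0.64). Of the 31 falls in brain 17 were tested at the same locus, 12 were above 0, 5 below 0 and none called. Of the heat shock genes that fell in brain, Hsp67Ba was lower in knockdown cells too, at 12.5 and 9.85 FPKM (-0.34). Others had higher values there without a call: Hsp26 had 998 and 1919 FPKM, DnaJ-1 104 and 138, Hsp27 415 and 464, and stv 3.61 and 13.5 (q = 0.0564 in the authors' deposited table). Hsp67Bc, not called in brain (194 FPKM in control and 134 in knockout), had 37.5 in control and 98.7 in knockdown cells. Its q there was 0.0393 in the authors' deposited table, below the threshold. p53 had 46.7 and 80.4. Over all genes tested in BG3C2 the median was -0.01, with 4184 above 0. Whether the response differs between brain and cell line was not tested.

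**Figure D5:**
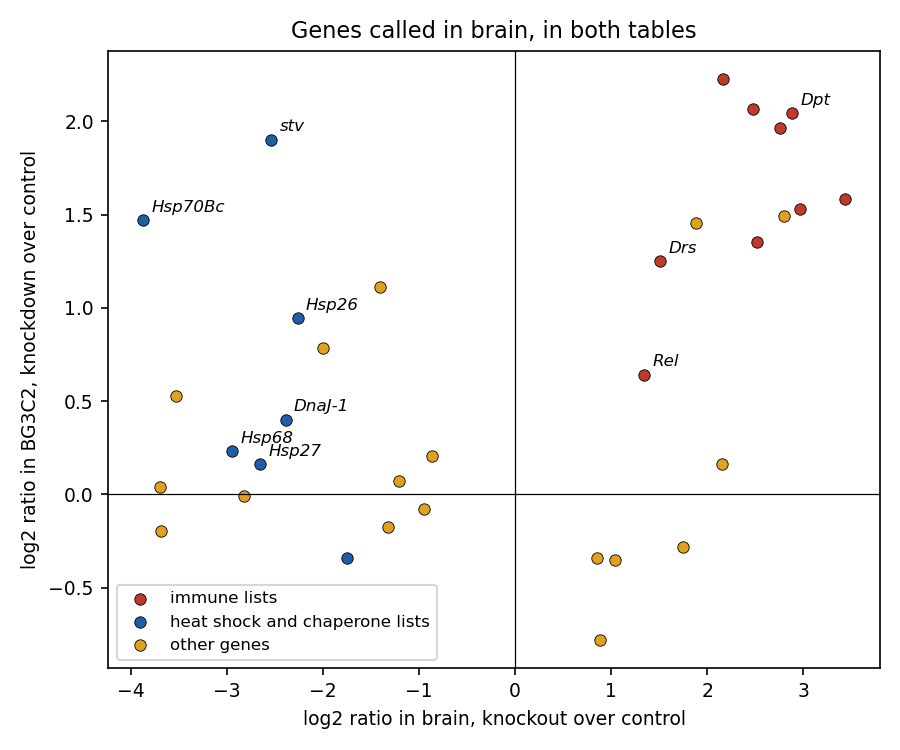
Log2 ratio in brain (knockout over control, horizontal) against that in BG3C2 cells (knockdown over control, vertical) for genes called in brain and tested at the same locus in both tables. CG43236, at 0 in control brains, has no brain ratio and is not drawn. Immune genes (red) lie at the upper right, while 5 of the 17 brain falls and 4 of the brain rises lie below 0 on the vertical axis.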

How the data were processed

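RNA-seq of control and DMAD-knockout brains (2 libraries each) and of BG3C2 cells was used as deposited. The deposited Cuffdiff gene table holds, per the file headers, 1 FPKM per gene for each group, with the authors' log2 fold change, p-value and q-value; the log2 ratios here were computed from the deposited FPKM. TopHat2 2.0.8, Bowtie 0.12.9, Cuffdiff 2.2.1, MACS 1.4.2 and CASAVA 1.4 are named with build dm3 in the submitters' processing notes, with no roles or settings given in the sources used here. No column of per-sample values was left unused (0 columns). No counts were used, so depth is unknown and no interval on FPKM could be given, and no new test over samples was fitted.

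Members, the 36 gene lists and all rules were chosen with earlier results of these data known, so no list count is independent evidence. Named genes are the target, any gene called by the authors (first the 15 largest each way reaching an FPKM of 1 in each group and those at 0 in one group), and per list up to 4 members of highest FPKM and up to 4 of largest ratio at an unadjusted p below 0.05. Other genes named without a call, and all of chromosome 4, were chosen after their values were seen. Symbols were matched to lists through RefSeq synonyms, used for names only. A gained 6mA region overlaps a locus where they share at least 1 bp; the authors' list gives positions only, and how gain was called is not given in the sources used here. Alternatives were a q below 0.01, unadjusted p below 0.05, FPKM + 1 and FPKM + 0.1, a minimum FPKM of 1 in each group, centring on the median, 50% overlap and loci extended by 1 kb. List summaries, overlaps and chains were tested on simulated data. Python 3.11.15, numpy 2.4.6, pandas 2.3.3, SciPy 1.17.1 and matplotlib 3.10.9 were used.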

Additional observations from a re-analysis of the deposited data

How the results depend on the processing

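At a q below 0.01 the Cuffdiff values give 0 genes higher and 0 lower, because the lowest q in the table is 0.0103, while an unadjusted p below 0.05 gives 159 higher and 131 lower. The Hsp70 and Hsp68 median was -4.31 with FPKM + 1 and -4.43 with FPKM + 0.1, since Hsp70Ba then enters. The digestive enzyme median was 0.91 with FPKM + 0.1 and 0.50 for genes reaching an FPKM of 1 in each group. The share of all loci with a gained 6mA region was 26.8% with loci extended by 1 kb. Chromosome 4, an alternative added after the data were seen, had a median of -0.23 over its 7 genes with a mean FPKM under 10. Of the other list medians, 1 changed sign, that of the small RNA pathway (0.01 when centred). Adding a pseudocount cannot turn the direction of a single gene. No paired analysis was possible because the table holds 1 value per gene and group, and leaving out a library could not be computed for the same reason. Promoter motifs were not run, as no promoter sequence was used here. Low genes and short transcripts rest on few fragments of unknown number.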
